A study of Homo sapiens with 18 samples.

Results

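The transcripts of 10 Polycomb genes were followed in OCI-Ly1 and TMD8, a pair of human diffuse large B-cell lymphoma lines, after exposure to JIB-04, an inhibitor of the histone demethylases of the Jumonji family. The genes were chosen by symbol, from a list written without a rule on measured values but with earlier results of these data known. They were EZH1, EZH2, EED, SUZ12 and JARID2 of Polycomb repressive complex 2 (PRC2), and BMI1, RING1, RNF2, CBX2 and CBX7 of Polycomb repressive complex 1 (PRC1). All 10 were found among the 23686 symbols of the tables, and all 10 passed the filter on low counts in both lines. Each line had 3 groups of 3 libraries: a vehicle group in 0.01% DMSO, a group given 150 nM JIB-04 and a group given 500 nM JIB-04. OCI-Ly1 cells grew in IMDM and TMD8 cells in RPMI, both with serum, so line and medium cannot be told apart. The 3 libraries of a group were technical replicates per the labels, and nothing says that they came from separate cultures, so p-values measure the spread between libraries only. No time of exposure is given in the sources used here. Results on an established line hold at most for that line, and here for the cultures sampled.

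PRC2 places methyl groups on lysine 27 of histone H3 through its catalytic subunit, EZH2 or the related EZH1, held by the scaffold subunits EED and SUZ12; JARID2 is an accessory subunit that helps recruit the complex. PRC1 ubiquitinates histone H2A through the E3 ligases RING1 and RNF2 (also called RING1A and RING1B), which pair with a Polycomb RING finger protein such as BMI1, while CBX proteins such as CBX2 and CBX7 read the methyl mark. EZH2 is high in germinal-centre B cells, where it represses cell-cycle inhibitors and differentiation genes, and OCI-Ly1 is widely used as a line with an activating EZH2 mutation; allele sequences were not examined here.

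Libraries held 17579732 to 32651115 estimated counts in OCI-Ly1 and 9550092 to 20509500 in TMD8, where each 500 nM library was shallower than each DMSO library. DMSO library 1 of TMD8 stood apart from its group, differing from libraries 2 and 3 by a chi-square of 10.3 and 10.9 per degree of freedom, while those differed from each other by 1.90; calls that depend on it are given without it. All 6 B-cell markers exceeded 1 TPM (transcripts per 1000000, a level per transcript length) in every library of both lines. The 5 germinal-centre markers summed to 203 to 214 TPM in the DMSO libraries of OCI-Ly1 and 38.3 to 45.3 TPM in those of TMD8, and the 5 activated B-cell markers to 87.5 to 96.8 and 643 to 791 TPM. Of the germinal-centre markers LMO2 went against the label, at 0.011 TPM in OCI-Ly1 and 25.1 TPM in TMD8 with DMSO (means), and made up most of the TMD8 sum. At 500 nM the activated B-cell sum was 167 to 178 TPM in OCI-Ly1 and 332 to 380 TPM in TMD8. TPM sums are shares of a library, so they are a rough guide across doses and lines. By edgeR the median log2 change of the tested activated B-cell markers at 500 nM was 0.75 in OCI-Ly1 and -0.60 in TMD8. T-cell markers summed to 26.7 to 28.9 TPM in OCI-Ly1 with DMSO and 11.9 to 13.8 TPM at 500 nM, nearly all of it CD3D and CD3G, with CD3E at no more than 0.506 TPM; in TMD8 they reached at most 1.82 TPM, with CD3E at 0. Myeloid markers summed to at most 1.53 TPM in any library. Erythroid and fibroblast markers summed to at most 0.625 TPM in OCI-Ly1 and, in TMD8, moved from at most 0.744 and 0.620 TPM with DMSO to 1.78 to 2.14 and 2.78 to 2.98 TPM at 500 nM. The erythroid move was mostly HBA1 (means of 0.428 and 1.82 TPM), with HBB at 0 in both groups. The fibroblast move was mostly COL1A1 (0.416 and 2.74 TPM), while DCN went from 0.095 to 0.064 TPM. The part of these shifts in the results below was not tested.

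RefSeq promoter windows (GRCh38.p14, 250 bases before to 50 after a start site) were available for 9 of the 10 genes, in 12 windows, CBX2 being the unmatched one. They held 16 to 65 CpG dinucleotides against a median of 14 over 35116 promoters, with EED, at 16, close to that median. 8 motifs were searched on both strands. The E2F words TTTCCCGC, TTTGGCGC, TTTCGCGC and TTTGCCGC, recognised by the E2F factors that drive cell-cycle genes, occurred in 3 of the 12 windows, those of EZH1, EZH2 and SUZ12, and in 3.31% of all promoters. The cyclic-AMP response element TGACGTCA occurred at 2 places in a JARID2 window and in 1.85% of all promoters. These 4 windows are printed because they hold the E2F or TGACGTCA letters, each found in under 5% of all promoters. Capitals mark the E2F or TGACGTCA letters, and each sequence reads 5′ to 3′ on the gene's strand.
EZH1 promoter: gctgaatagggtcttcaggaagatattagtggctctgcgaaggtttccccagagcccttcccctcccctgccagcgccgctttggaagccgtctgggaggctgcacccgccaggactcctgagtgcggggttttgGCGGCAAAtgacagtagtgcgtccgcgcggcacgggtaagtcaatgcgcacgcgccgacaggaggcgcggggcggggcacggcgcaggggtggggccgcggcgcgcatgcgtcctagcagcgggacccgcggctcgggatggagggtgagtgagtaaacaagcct
EZH2 promoter: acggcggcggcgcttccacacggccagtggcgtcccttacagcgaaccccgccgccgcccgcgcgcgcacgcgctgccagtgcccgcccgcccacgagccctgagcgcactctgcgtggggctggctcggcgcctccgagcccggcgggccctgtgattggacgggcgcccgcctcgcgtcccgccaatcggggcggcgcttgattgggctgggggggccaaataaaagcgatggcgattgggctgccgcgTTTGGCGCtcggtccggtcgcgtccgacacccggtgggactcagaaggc
SUZ12 promoter: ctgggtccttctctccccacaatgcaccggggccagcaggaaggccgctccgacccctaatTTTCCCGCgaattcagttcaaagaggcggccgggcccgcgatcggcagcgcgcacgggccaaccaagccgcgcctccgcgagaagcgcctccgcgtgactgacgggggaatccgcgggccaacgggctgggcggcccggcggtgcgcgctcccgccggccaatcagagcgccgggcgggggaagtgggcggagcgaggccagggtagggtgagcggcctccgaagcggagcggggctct
JARID2 promoter: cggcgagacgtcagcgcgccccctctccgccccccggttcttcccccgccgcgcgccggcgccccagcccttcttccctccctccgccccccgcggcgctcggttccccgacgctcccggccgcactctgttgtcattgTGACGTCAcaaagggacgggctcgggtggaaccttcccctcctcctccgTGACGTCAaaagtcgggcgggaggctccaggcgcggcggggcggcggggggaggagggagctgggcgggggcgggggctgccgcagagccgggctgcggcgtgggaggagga
The EZH1 window lies at chr17:42744991-42745290 (minus strand), with its match on the opposite strand starting 115 bases before the start site. The EZH2 window lies at chr7:148884242-148884541 (minus strand), with its match starting at base 2 of the transcript. The SUZ12 window lies at chr17:31936757-31937056 (plus strand), with its match 189 bases before the start site. The JARID2 window lies at chr6:15248605-15248904 (plus strand), with matches starting 111 and 62 bases before the start site. Of the other motifs, the E-box CACGTG (7.26% of promoters) occurred in BMI1, CCAAT (34.6%) in EZH2, EED, SUZ12, JARID2 and CBX7, and the GC box GGGCGG (45%) in 8 genes. The ATF4 composite words TGATGCAA and TGACGCAA (1.38%), the NRF1 core motif (1.24%) and the ETS word CCGGAAGT (4.14%) occurred in none of the windows. A match of letters is a description of the sequence and was not tested as a binding site.

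EZH2 was the most abundant of the 10 transcripts in OCI-Ly1, at 115 ± 6.60 TPM with DMSO (SD, n = 3), followed by SUZ12 at 53.4 ± 4.02, EED at 41.4 ± 1.01, RING1 at 29.3 ± 1.07 and EZH1 at 26.9 ± 0.932 TPM. None of these 5 overlapped its neighbour in that order. RNF2, CBX2 and BMI1 lay at 9.67 to 11.9 TPM with overlapping libraries, and JARID2 (5.56 ± 0.228 TPM) and CBX7 (3.92 ± 0.499 TPM) were the lowest. In TMD8 with DMSO the order differed. SUZ12 (35.2 ± 6.11 TPM) and EZH2 (30.3 ± 4.8 TPM) overlapped at the top, BMI1, EED and RING1 followed at 14.2 to 17.0 TPM with overlapping neighbours, and RNF2 stood at 10.6 ± 2.10 TPM. EZH1 came next at 6.20 ± 0.538 TPM, CBX2 (3.15 ± 0.280 TPM) and JARID2 (2.81 ± 0.420 TPM) overlapped, and CBX7 was lowest at 0.994 ± 0.128 TPM. TPM levels are shares of a library, and 1 small RNA, MIR3687, took 15.2% to 24.3% of all TPM in the TMD8 libraries, more in each 500 nM library than in any DMSO library, so TPM levels are compared within a library. In OCI-Ly1 the small RNA RPPH1 took 6.33% to 7.63% with DMSO or 150 nM and 9.70% to 10.6% at 500 nM.

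**Figure D1:**
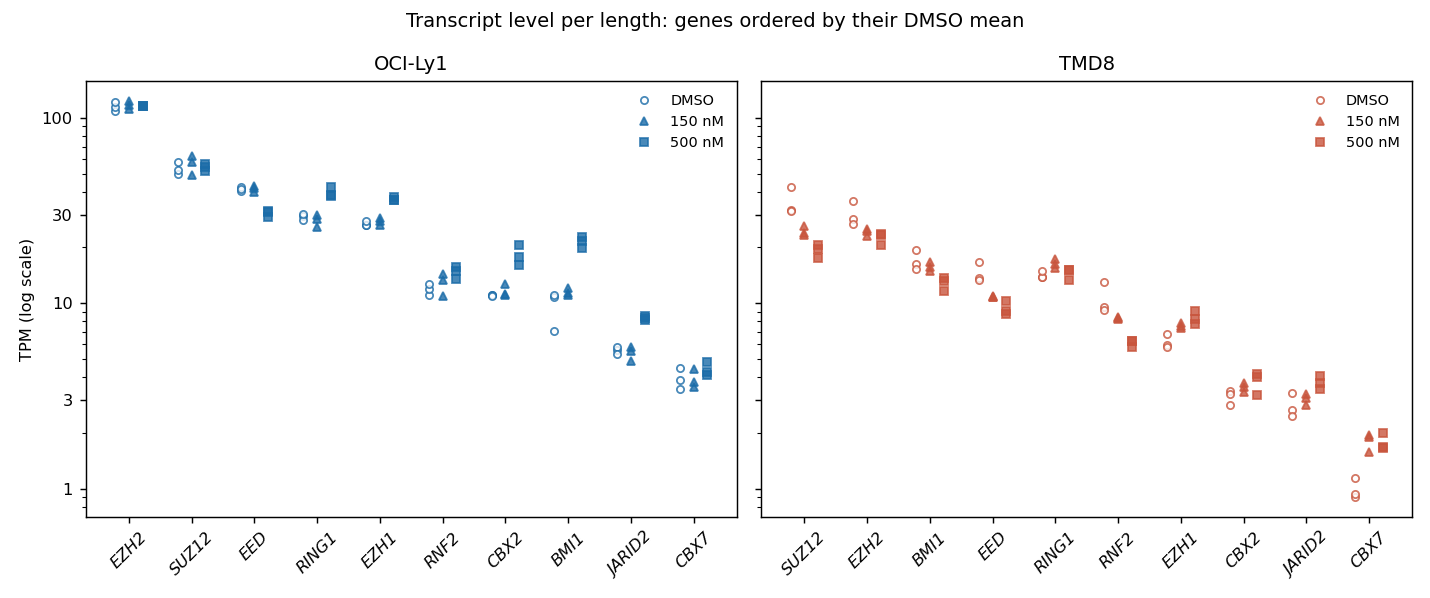
TPM of the 10 genes on a log axis in every library of OCI-Ly1 (left) and TMD8 (right), with genes ordered by their DMSO mean; open circles are DMSO, triangles 150 nM and squares 500 nM. EZH2 stands alone at the top in OCI-Ly1, SUZ12 and EZH2 share the top in TMD8, and CBX7 is lowest in both.

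At 500 nM the order in OCI-Ly1 kept EZH2 (116 ± 0.386 TPM) and SUZ12 (54.1 ± 2.53 TPM) at the top, while EED (30.6 ± 1.30 TPM) now stood below RING1 (39.7 ± 2.47 TPM) and EZH1 (36.5 ± 0.663 TPM), and BMI1 (21.4 ± 1.58 TPM) stood above CBX2 and RNF2, overlapping CBX2. In TMD8 at 500 nM, EZH2 (22.5 ± 1.66 TPM) stood above SUZ12 (19.2 ± 1.57 TPM) without overlap, and EZH1 (8.34 ± 0.709 TPM) stood above RNF2 (6.10 ± 0.285 TPM), the reverse of their order with DMSO.

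The lines differed at baseline in 8 of the 10 genes, near the 76.7% of all tested genes that differed. In 1 edgeR fit of all 18 libraries, 5 genes were higher in OCI-Ly1 with DMSO than in TMD8 with DMSO and 3 were lower, against 37.8% of all tested genes called higher and 39% called lower. The PRC2 enzymes were both higher in OCI-Ly1: EZH2 at 225 ± 8.44 against 116 ± 8.81 CPM (TMM-normalised counts per 1000000, SD, n = 3; log2 difference 0.96 ± 0.054 SE, edgeR adjusted p = 2.5e-15) and EZH1 at 93.6 ± 0.772 against 42.2 ± 0.330 CPM (1.15 ± 0.050, edgeR adjusted p = 8.1e-18). EED, CBX2 and CBX7 were also higher in OCI-Ly1, by 0.54, 0.86 and 1.02 on the log2 scale. BMI1 showed the largest gap of the 10, at 24.5 ± 5.38 CPM in OCI-Ly1 against 84.3 ± 4.15 CPM in TMD8 (log2 difference -1.79 ± 0.098, edgeR adjusted p = 1.3e-15). Over the alternatives this difference ran from -1.89 to -1.41. Summed with an overlapping read-through locus described below, the DMSO means were 36.8 ± 2.80 and 90.2 ± 4.59 CPM, each line normalised on its own. RNF2 and SUZ12 were lower in OCI-Ly1, with log2 differences of -0.79 and -0.36. JARID2 and RING1 did not pass the test, with log2 differences of 0.03 (95% interval -0.13 to 0.20) and 0.07 (-0.09 to 0.22); with library-size scaling, which moved the median of all genes to 0.12, they were called higher in OCI-Ly1 at 0.18 and 0.21. Of the 9 other PRC2 genes tested, 5 were higher in OCI-Ly1 and 4 lower, and of 24 other PRC1 genes 9 were higher and 12 lower.

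At 500 nM JIB-04, most of the 10 genes were called in both lines, as were most of all tested genes. At 150 nM most were called in TMD8 and none in OCI-Ly1, where few of all tested genes were called. Against DMSO, 500 nM raised 5 genes and lowered 2 in OCI-Ly1, where 27.7% of all 15638 tested genes were called higher and 25.9% lower. In TMD8, 500 nM raised 5 and lowered 3, against 29.9% and 30.7% of 15363 tested genes. At 150 nM in TMD8, 5 were called higher and 4 lower, against 19.2% and 25%. In OCI-Ly1 at 150 nM, 0 of the 10 were called by edgeR, against 0.748% of tested genes called higher and 0.141% called lower; 0 passed at an unadjusted p under 0.05 either, and 0 were called by DESeq2 or by limma on log2(TPM + 1). Between the doses, 500 nM against 150 nM gave 5 higher and 2 lower in OCI-Ly1 (background 25.1% and 21.1%) and 3 higher and 1 lower in TMD8 (background 13.7% and 15%). The median log2 change of the 10 at 500 nM was 0.24 in OCI-Ly1 and 0.19 in TMD8, beside -0.0033 and 0.04 over all tested genes. Across the lines at 500 nM, 4 genes (EZH1, JARID2, RING1 and CBX2) rose in both and 1 (EED) fell in both, beside 14.1% and 13.7% of the 14483 genes tested in both lines. The doses share their DMSO libraries, so their counts are not independent.

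**Figure D2:**
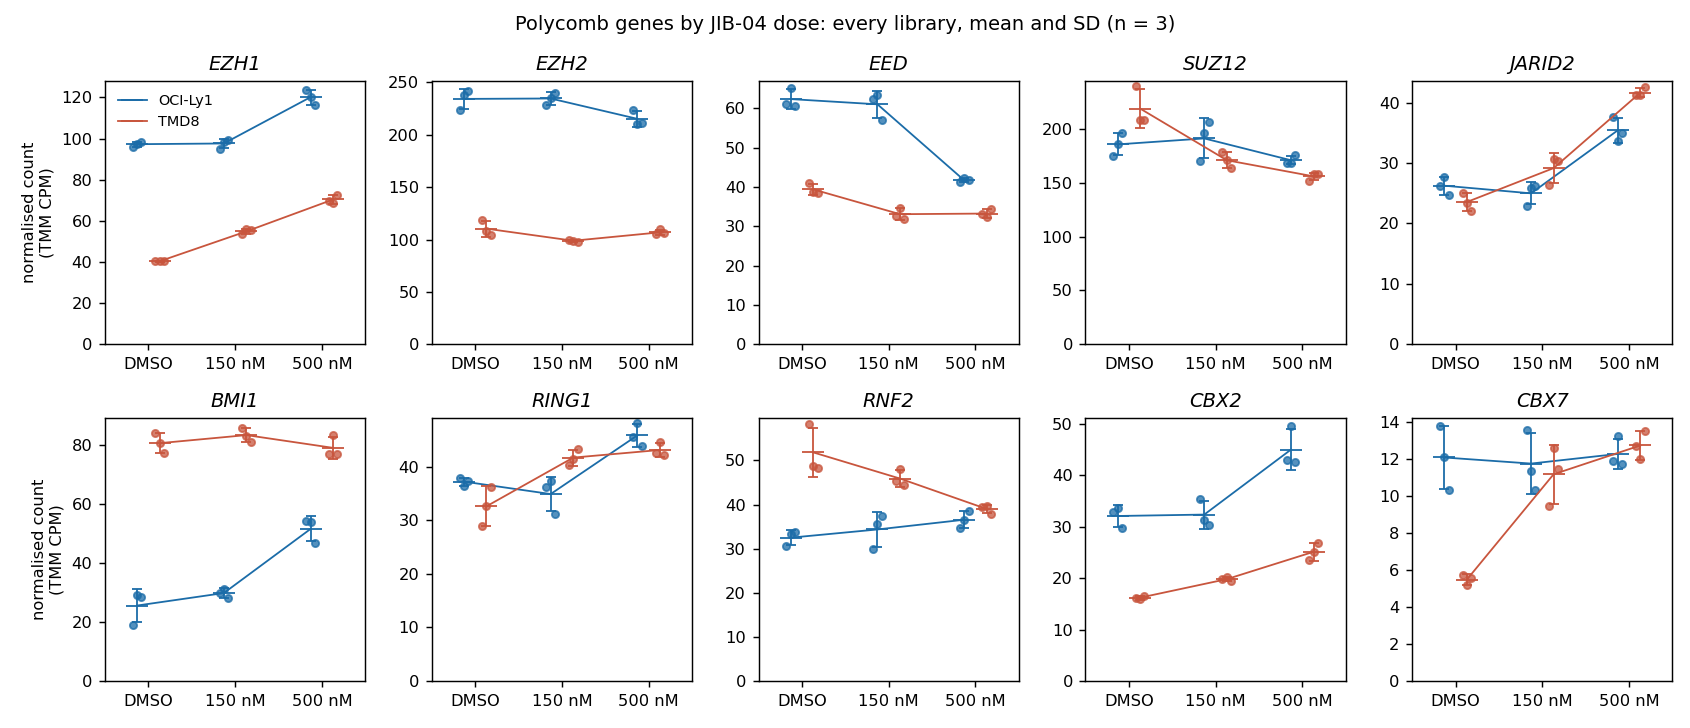
TMM-normalised CPM of each gene in every library, by dose, with group means joined by lines and SD as bars (n = 3); blue is OCI-Ly1 and red is TMD8, each normalised within its own line. EZH1, JARID2 and CBX2 are higher at 500 nM in both lines, EED is lower, and BMI1 and CBX7 differ between the lines.

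EZH2, the main H3K27 methyltransferase of dividing cells, showed small changes whose calls depended on the scale. In OCI-Ly1 it measured 223, 238 and 242 CPM with DMSO, 228, 236 and 240.3 CPM at 150 nM, and 224, 210.4 and 211 CPM at 500 nM. The 500 nM libraries overlapped the DMSO libraries through 1 library of each. The log2 change at 500 nM was -0.12 ± 0.050 SE (a fold of 0.919), just inside the threshold with an edgeR adjusted p of 0.0495. This call was lost in 5 of the 15 alternatives and changed sign in 2 more, at 0.011 on log2(TPM + 1) and on log2(TPM + 0.1); the losses included leaving out DMSO library 2 or 3 (adjusted p of 0.114 and 0.146) or 500 nM library 2 or 3 (0.138 and 0.143). Against 150 nM, from which it did not overlap, the 500 nM group changed by -0.12 (adjusted p = 0.0513), and 7 of the 15 alternatives called it lower. In TMD8, EZH2 measured 119, 108 and 104 CPM with DMSO, 99.99, 98.7 and 97.8 CPM at 150 nM, and 105, 109.7 and 106 CPM at 500 nM. All 150 nM libraries lay below all DMSO libraries, with a log2 change of -0.16 ± 0.051 SE (edgeR adjusted p = 0.0178), and the 500 nM libraries lay among the DMSO ones, at -0.05 (95% interval -0.15 to 0.06, adjusted p = 0.468). On log2(TPM + 1), where the median of all genes moved by -0.22, EZH2 was called lower at 500 nM (-0.41, limma adjusted p = 0.00424), and after centring on the library median it was still called lower (-0.15, adjusted p = 0.0267). The 150 nM call in TMD8 was lost without DMSO library 1 (-0.10, adjusted p = 0.0583), without 150 nM library 3, with library-size scaling and when only those 2 groups were fitted.

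EZH1, the related methyltransferase that is less active and more typical of resting cells, rose in both lines. In OCI-Ly1 it measured 96.2, 97.2 and 98.5 CPM with DMSO, 95.1, 98.2 and 99.5 CPM at 150 nM, and 124, 120.2 and 117 CPM at 500 nM. In TMD8 it measured 40.3, 40.5 and 40.2 CPM with DMSO, 53.4, 55.9 and 55.4 CPM at 150 nM, and 69.7, 68.8 and 72.6 CPM at 500 nM. The TMD8 groups formed 3 separate steps, while in OCI-Ly1 only the 500 nM group stood apart. At 500 nM the log2 change was 0.31 ± 0.052 SE in OCI-Ly1 (edgeR adjusted p = 9.1e-05) and 0.80 ± 0.052 in TMD8 (5.1e-10). The step from 150 to 500 nM in TMD8 was 0.36 ± 0.051 (adjusted p = 6.1e-05), a call lost on log2(TPM + 1) and log2(TPM + 0.1). At 150 nM in TMD8 the change was 0.44 ± 0.052 (adjusted p = 3.0e-06), lost on log2(TPM + 1) at an adjusted p of 0.0504.

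The TPM ratio of the enzymes within a library does not depend on library scaling, and it was lower in the groups where EZH1 rose. The EZH2/EZH1 ratio of the OCI-Ly1 libraries was 4.13, 4.34 and 4.36 in the vehicle group, 4.26, 4.25 and 4.29 in the 150 nM group and 3.20, 3.10 and 3.21 in the 500 nM group. The TMD8 libraries gave 5.26, 4.75 and 4.62 in the vehicle group, 3.34, 3.15 and 3.14 in the 150 nM group and 2.67, 2.84 and 2.60 in the 500 nM group. The ratio stayed above 1 in all 18 libraries, so EZH2 remained the more abundant transcript. The ratio is a description, with no test beyond those of its 2 genes.

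**Figure D3:**
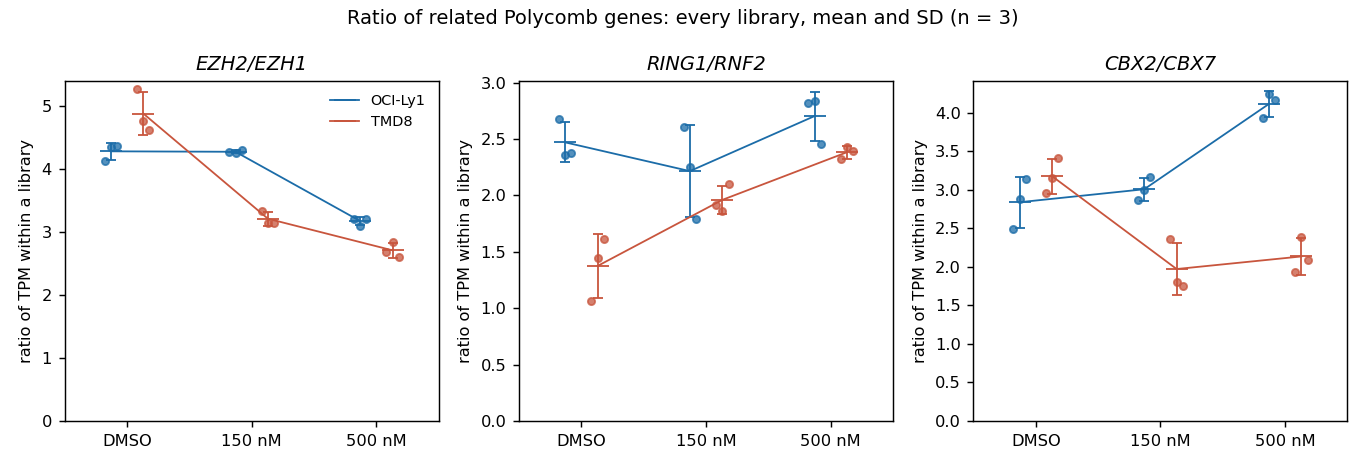
Ratio of TPM within each library for EZH2/EZH1, RING1/RNF2 and CBX2/CBX7 by dose, with group means joined by lines and SD as bars (n = 3; blue OCI-Ly1, red TMD8). EZH2/EZH1 is lower at 500 nM in both lines, and CBX2/CBX7 is higher at 500 nM in OCI-Ly1 and lower in TMD8.

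Of the scaffold subunits, EED fell in both lines and SUZ12 fell in TMD8. EED, which binds the methyl mark and stimulates the enzyme, measured 61.1, 65.3 and 60.7 CPM with DMSO in OCI-Ly1, 62.4, 63.5 and 57.1 CPM at 150 nM, and 41.2, 42.2 and 41.7 CPM at 500 nM. The 500 nM libraries were well separated from the rest, with a log2 change of -0.58 ± 0.062 SE (edgeR adjusted p = 4.5e-07). In TMD8 EED measured 41.0, 38.7 and 38.4 CPM with DMSO, 32.6, 34.7 and 31.9 CPM at 150 nM, and 33.1, 32.2 and 34.4 CPM at 500 nM. Both doses lay below DMSO and overlapped each other, with log2 changes of -0.25 ± 0.061 (adjusted p = 0.00275) and -0.25 ± 0.063 (adjusted p = 0.00251).

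SUZ12, which is needed for the assembly of PRC2, measured 175, 186 and 196 CPM with DMSO in OCI-Ly1, 171, 197 and 207 CPM at 150 nM, and 169, 169 and 176 CPM at 500 nM. These groups overlapped, and the log2 change at 500 nM against DMSO was -0.12 (95% interval -0.26 to 0.02, edgeR adjusted p = 0.13), and on log2(TPM + 1) centred on the library median it was called lower (-0.21, adjusted p = 0.0392). Against 150 nM it was -0.16 (adjusted p = 0.0498), a call lost in 8 of the 15 alternatives, among them the omission of 150 nM library 2 or 3 and of each of the 500 nM libraries. In TMD8 SUZ12 measured 240.4, 208 and 209 CPM with DMSO, 179, 171 and 164 CPM at 150 nM, and 152, 158 and 158 CPM at 500 nM. The 3 TMD8 groups did not overlap, with log2 changes against DMSO of -0.36 ± 0.056 at 150 nM (adjusted p = 5.8e-05) and -0.49 ± 0.057 at 500 nM (adjusted p = 7.2e-07). The step from 150 to 500 nM, -0.13 (adjusted p = 0.0975), did not pass, and 6 of the 15 alternatives called it lower. SUZ12P1, a pseudogene that shares sequence with SUZ12, was listed at 5.77 to 8.67 CPM in OCI-Ly1 and 4.15 to 7.16 CPM in TMD8, and how shared reads were divided is not given in the sources used here. It fell in OCI-Ly1 at 500 nM (-0.46, edgeR adjusted p = 0.00299), and summing it with SUZ12 changed no call of SUZ12.

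JARID2, a member of the Jumonji family that has lost demethylase activity, rose in both lines. In OCI-Ly1 it measured 26.2, 27.8 and 24.7 CPM with DMSO, 22.9, 25.8 and 26.2 CPM at 150 nM, and 37.7, 33.6 and 35.0 CPM at 500 nM. In TMD8 it measured 25.1, 23.4 and 22.1 CPM with DMSO, 26.3, 30.7 and 30.4 CPM at 150 nM, and 41.2, 41.2 and 42.6 CPM at 500 nM. The TMD8 groups rose in 3 steps without overlap, and in OCI-Ly1 the 500 nM libraries alone stood above the others. The log2 change at 500 nM was 0.44 ± 0.077 SE in OCI-Ly1 (edgeR adjusted p = 0.000134) and 0.82 ± 0.072 in TMD8 (2.3e-08). At 150 nM in TMD8 it was 0.32 ± 0.073 (adjusted p = 0.00199), lost on both TPM scales, as was the step of 0.51 from 150 to 500 nM.

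Of the RING ligases of PRC1, RING1 rose in both lines and RNF2 fell in TMD8; the difference between the 2 genes was not tested. In OCI-Ly1 RING1 measured 37.9, 36.5 and 37.4 CPM with DMSO, 36.2, 37.4 and 31.3 CPM at 150 nM, and 45.6, 48.2 and 43.9 CPM at 500 nM. In TMD8 it measured 28.9, 32.7 and 36.3 CPM with DMSO, 40.3, 41.6 and 43.4 CPM at 150 nM, and 42.6, 44.7 and 42.2 CPM at 500 nM. In TMD8 both doses lay above DMSO and overlapped each other. The log2 change at 500 nM was 0.30 ± 0.072 SE in OCI-Ly1 (edgeR adjusted p = 0.00199) and 0.40 ± 0.075 in TMD8 (adjusted p = 0.000158), and at 150 nM in TMD8 it was 0.35 ± 0.073 (adjusted p = 0.000801). Both TMD8 calls were lost on log2(TPM + 1), where the change at 500 nM was 0.03.

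RNF2, the main ubiquitin ligase of PRC1, fell in TMD8. It measured 58.3, 48.8 and 48.4 CPM with DMSO, 45.4, 48.0 and 44.3 CPM at 150 nM, and 39.5, 39.6 and 38.0 CPM at 500 nM. Its log2 change was -0.41 ± 0.072 SE at 500 nM (edgeR adjusted p = 9.3e-05). The 150 nM value, -0.17, passed with an adjusted p of 0.0498 and was lost in 9 of the 15 alternatives, among them the omission of DMSO library 1 (-0.087, adjusted p = 0.226), of 150 nM library 1 or of 150 nM library 3. Against 150 nM, the fall at 500 nM was -0.23 (adjusted p = 0.0242), lost without 150 nM library 2 or any 1 of the 500 nM libraries. In OCI-Ly1 RNF2 measured 30.5, 33.2 and 33.8 CPM with DMSO, 29.9, 35.7 and 37.5 CPM at 150 nM, and 34.7, 36.5 and 38.5 CPM at 500 nM. The log2 change there was 0.17 at 500 nM (95% interval -0.0026 to 0.34, adjusted p = 0.0895), and 5 of the 15 alternatives called it higher; its 500 nM libraries lay above its DMSO libraries without overlap. The RING1/RNF2 ratio of TPM in TMD8 was 1.06, 1.45 and 1.62 in the vehicle group, 1.91, 1.86 and 2.10 in the 150 nM group and 2.32, 2.43 and 2.39 in the 500 nM group, while in OCI-Ly1 it ran from 1.79 to 2.84 with overlapping groups.

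BMI1, a Polycomb RING finger protein that stimulates the ligase and is known as an oncogene in lymphoma, rose in OCI-Ly1 and was not called in TMD8. In OCI-Ly1 it measured 19.0, 29.1 and 28.5 CPM with DMSO, 29.9, 31.3 and 28.1 CPM at 150 nM, and 54.1, 53.7 and 46.6 CPM at 500 nM. In TMD8 it measured 83.9, 80.4 and 77.2 CPM with DMSO, 85.8, 83.0 and 80.9 CPM at 150 nM, and 76.7, 83.3 and 76.7 CPM at 500 nM. The OCI-Ly1 libraries at 500 nM all lay above the other 6 and below all TMD8 libraries. The log2 change at 500 nM in OCI-Ly1 was 1.02 ± 0.116 SE (a fold of 2.03, edgeR adjusted p = 9.8e-07) and 0.83 without the low DMSO library 1. In TMD8 it was -0.03 (95% interval -0.14 to 0.08, adjusted p = 0.679), but BMI1 was called lower there on log2(TPM + 1) (-0.38, limma adjusted p = 0.00468), and library-size scaling called it higher at 150 nM (0.13, adjusted p = 0.0232).

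The BMI1 locus overlaps an annotated read-through transcript with its neighbour COMMD3, listed as COMMD3-BMI1, and shared reads have to be divided between them. COMMD3-BMI1 libraries lay between 5.09 and 15.5 CPM (OCI-Ly1) and between 3.29 and 12.5 CPM (TMD8), with no change called at either dose, and the DMSO library of OCI-Ly1 that was low in BMI1 had the highest read-through value of its group, 14.7 CPM. The sum of both loci in OCI-Ly1 was 36.8 ± 2.80 CPM with DMSO, 40.7 ± 4.99 CPM at 150 nM and 60.3 ± 2.01 CPM at 500 nM (SD, n = 3). With the loci summed the log2 change at 500 nM was 0.71 (edgeR adjusted p = 1.2e-06), and BMI1 passed the test in this comparison in all 15 alternatives. COMMD3 itself rose by 0.34 ± 0.075 SE on the log2 scale in OCI-Ly1 (edgeR adjusted p = 0.000972) and by 0.28 ± 0.091 in TMD8 (adjusted p = 0.0139, with overlapping groups).

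**Figure D4:**
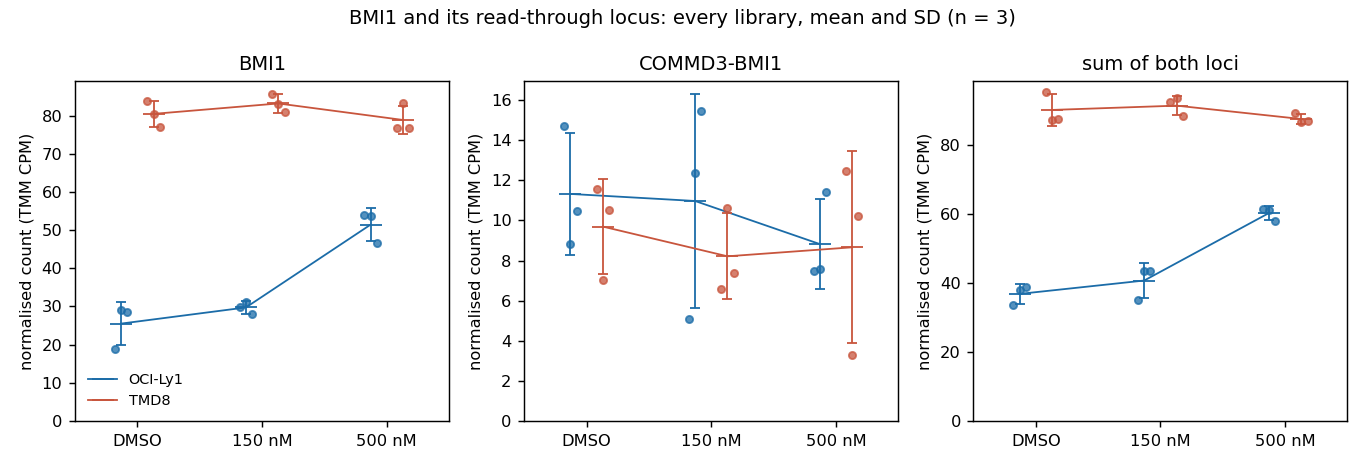
TMM-normalised CPM of BMI1, of the read-through locus COMMD3-BMI1 and of their sum in every library, with group means joined by lines and SD as bars (n = 3; blue OCI-Ly1, red TMD8). The sum in OCI-Ly1 sits between 58.0 and 61.6 CPM at 500 nM, above all its DMSO and 150 nM libraries, while the read-through locus scatters within groups.

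The CBX readers showed different patterns. CBX2, which can compact chromatin, measured 32.9, 33.7 and 29.7 CPM with DMSO in OCI-Ly1, 35.5, 31.2 and 30.4 CPM at 150 nM, and 42.9, 49.5 and 42.6 CPM at 500 nM. In TMD8 it measured 16.1, 15.9 and 16.6 CPM with DMSO, 19.7, 20.2 and 19.4 CPM at 150 nM, and 23.5, 25.0 and 26.9 CPM at 500 nM. CBX2 thus rose in 3 steps in TMD8 and at 500 nM alone in OCI-Ly1, with log2 changes at 500 nM of 0.49 ± 0.081 SE in OCI-Ly1 (edgeR adjusted p = 7.1e-05) and 0.62 ± 0.075 in TMD8 (1.1e-06). At 150 nM in TMD8 the change was 0.29 ± 0.075 (adjusted p = 0.00453); both TMD8 calls, and that of the step between the doses (0.34), were lost on the TPM scales, with adjusted p of 0.0893 at 500 nM on log2(TPM + 1).

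CBX7, the lowest of the 10 and a reader linked to repression of the CDKN2A locus, rose in TMD8 and was not called in OCI-Ly1, a difference tested below. It measured 5.71, 5.16 and 5.53 CPM with DMSO in TMD8, 9.43, 12.6 and 11.5 CPM at 150 nM, and 12.7, 11.97 and 13.5 CPM at 500 nM, with 90 to 231 counts a library. In OCI-Ly1 it measured 13.8, 12.1 and 10.3 CPM with DMSO, 13.6, 11.3 and 10.3 CPM at 150 nM, and 11.9, 13.2 and 11.7 CPM at 500 nM. All 6 treated TMD8 libraries lay above the 3 vehicle libraries. The log2 change in TMD8 was 1.03 ± 0.121 SE at 150 nM (edgeR adjusted p = 2.8e-06) and 1.21 ± 0.122 at 500 nM (adjusted p = 1.3e-07), and that in OCI-Ly1 at 500 nM was 0.02 (95% interval -0.24 to 0.28, adjusted p = 0.899). The step between the doses in TMD8, 0.18 (adjusted p = 0.264), did not pass. The CBX2/CBX7 ratio of TPM in TMD8 was 2.97, 3.15 and 3.42 in the vehicle group and 1.93, 2.39 and 2.09 in the 500 nM group. In OCI-Ly1 the same groups gave 2.49, 2.88 and 3.15, and 3.93, 4.25 and 4.17.

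**Figure D5:**
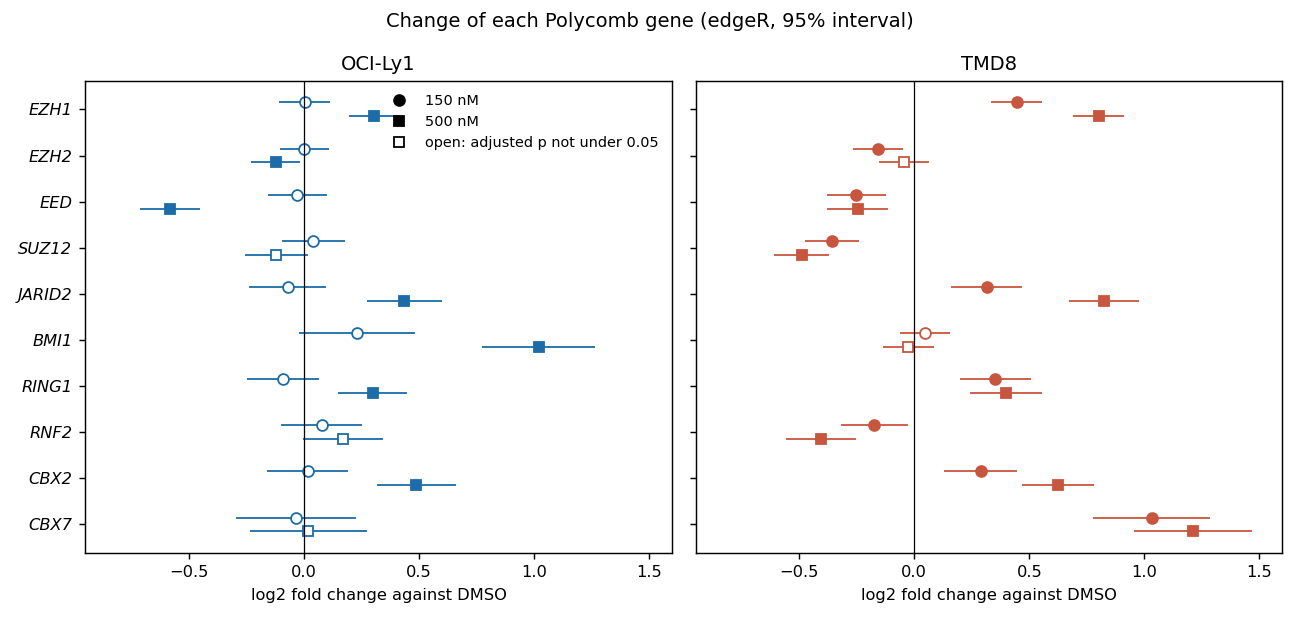
Log2 fold change of each gene against DMSO with its 95% interval, in OCI-Ly1 (left) and TMD8 (right); circles are 150 nM, squares 500 nM, and open symbols did not reach an edgeR adjusted p under 0.05. All 150 nM values of OCI-Ly1 are open, and BMI1 in OCI-Ly1 and CBX7 in TMD8 lie farthest from 0.

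The responses of the lines were compared directly as the change in OCI-Ly1 minus that in TMD8, in 1 fit of 18 libraries. At 500 nM the difference was positive for 3 genes and negative for 4, against 28.2% and 18.1% of all 16604 tested genes. BMI1 differed by 1.08 ± 0.134 SE on the log2 scale (edgeR adjusted p = 3.3e-07), RNF2 by 0.61 ± 0.115 (adjusted p = 0.000107) and SUZ12 by 0.40 ± 0.093 (adjusted p = 0.00097). CBX7 differed by -1.16 ± 0.183 (edgeR adjusted p = 1.1e-05), EZH1 by -0.47 ± 0.069 (5.0e-06), JARID2 by -0.36 ± 0.108 (0.00874) and EED by -0.30 ± 0.087 (0.00597). Thus EZH1 and JARID2 rose more in TMD8 and EED fell more in OCI-Ly1. For EZH2 the difference was -0.05 (95% interval -0.20 to 0.11), for RING1 -0.07 (-0.29 to 0.14) and for CBX2 -0.11 (-0.35 to 0.13), none past the test. At 150 nM the difference was positive for 1 gene, SUZ12 (0.41), and negative for 4, EZH1 (-0.43), JARID2 (-0.38), RING1 (-0.44) and CBX7 (-1.06), against 15% and 8.33% of tested genes.

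The other PRC2 genes moved in both directions. Of 10 listed, 9 were in the tables and tested (EZHIP was not found, and EPOP is listed as C17orf96). At 500 nM 2 rose and 2 fell in OCI-Ly1, with a list median of -0.0067 (-0.0033 over all tested genes), and 2 rose and 5 fell in TMD8, with a median of -0.26 (0.04 over all). Of all tested genes, 27.7% were called higher and 25.9% lower in OCI-Ly1, and 29.9% and 30.7% in TMD8. The largest change was in PHF19, a Polycomb-like protein that binds CpG islands and recruits PRC2, which fell in TMD8 from 178 ± 0.282 to 66.1 ± 3.62 CPM (log2 change -1.43 ± 0.057 SE, edgeR adjusted p = 2.7e-12). PHF1, another Polycomb-like protein, rose in both lines. In OCI-Ly1 it went from 15.8 ± 0.980 to 22.3 ± 0.380 CPM (log2 change 0.50), while TMD8 showed 11.1 ± 1.82 CPM with DMSO and 24.7 ± 0.625 CPM at 500 nM (1.14). EPOP, a PRC2.1 subunit, rose in OCI-Ly1 (0.61) and fell in TMD8 (-0.66). In OCI-Ly1 RBBP7, a histone chaperone of PRC2, fell by 0.33 and MTF2, also a Polycomb-like protein, fell by 0.27; in TMD8 LCOR rose by 0.41 on the log2 scale.

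Of 25 other PRC1 genes, 24 were tested in OCI-Ly1 and 23 in TMD8. At 500 nM 9 rose and 3 fell in OCI-Ly1 (median 0.17), and 6 rose and 9 fell in TMD8 (median -0.08). All tested genes gave 27.7% higher and 25.9% lower in OCI-Ly1 (median -0.0033), and 29.9% and 30.7% in TMD8 (median 0.04). CBX6 fell in both lines, by 0.70 and 0.68 on the log2 scale. BCORL1, a corepressor of a variant PRC1, rose by 1.09 in OCI-Ly1, where it was low (1.09 ± 0.480 CPM with DMSO), and fell by 0.42 in TMD8. PCGF3, a Polycomb RING finger protein related to BMI1, fell by 0.36 in OCI-Ly1. AUTS2, a subunit of a variant PRC1, went in TMD8 from 0.458 ± 0.157 CPM with DMSO to 1.05 ± 0.200 CPM at 500 nM (1.23). AUTS2 passed the filter on low counts through the treated libraries, where it is high, so it had to differ. Its rise, counted among the 6, is therefore a description only.

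Of 12 genes whose products remove the Polycomb marks or belong to the BAP1 deubiquitinase complex, 3 rose and 3 fell in OCI-Ly1 at 500 nM. Among the 11 tested in TMD8, 4 rose and 3 fell. The medians were -0.0061 and -0.04, beside -0.0033 and 0.04 over all tested genes. Of the latter, 27.7% were called higher and 25.9% lower in OCI-Ly1, and 29.9% and 30.7% in TMD8. KDM6B, a demethylase of the PRC2 mark, rose in OCI-Ly1 from 8.09 ± 0.546 to 28.4 ± 1.02 CPM (log2 change 1.81), and in TMD8 it went from 55.1 ± 0.758 to 113 ± 2.30 CPM (1.04). The related KDM6A rose by 0.22 and 0.70 on the log2 scale. BAP1, which removes the PRC1 ubiquitin mark, fell by 0.21 and 0.41, and MBD6, a partner of BAP1, rose by 1.04 and 1.12. FOXK1 and ASXL1 fell in OCI-Ly1, by 0.35 and 0.27, and USP16, another H2A deubiquitinase, fell by 0.56 in TMD8.

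Most HOX genes, classic targets of Polycomb repression, did not pass the filter on low counts. Of 39, 8 passed the filter in OCI-Ly1 and 14 in TMD8, and 11 and 5 had a rounded count of 0 in every library of the line. Not all were low: in TMD8 with DMSO, HOXA10 (25.0 ± 1.92 CPM) and HOXC4 (18.6 ± 1.18 CPM) had higher means than CBX2 (16.2 ± 0.357 CPM). At 500 nM 4 of the 8 rose in OCI-Ly1 (median 0.60), with HOXA10 going from 2.04 ± 0.173 to 5.76 ± 0.718 CPM (log2 change 1.5 ± 0.185 SE, edgeR adjusted p = 2.5e-06) and HOXA5 from 0.704 ± 0.214 to 1.36 ± 0.0944 CPM. In TMD8, with a median of 0.29, 2 of the 14 rose, among them HOXB3 (0.70), and 2 fell, HOXC4 (-0.51) and HOXA10 (-0.29). Over all tested genes 27.7% were called higher and 25.9% lower in OCI-Ly1 (median -0.0033), and 29.9% and 30.7% in TMD8 (median 0.04). Genes that pass a filter on low counts through the group where they are high had to differ. The counts of HOX genes called therefore do not describe the HOX genes as a whole.

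Of 7 genes repressed through EZH2 in germinal-centre B cells, 6 were tested in OCI-Ly1 and 4 in TMD8. At 500 nM 5 of the 6 rose in OCI-Ly1 (median 0.67), led by the cell-cycle inhibitors CDKN1A (log2 change 3.05 ± 0.067 SE) and CDKN2B (1.24 ± 0.131). In TMD8 (median 0.10) 2 of the 4 rose, CDKN1A (1.48 ± 0.062) and PRDM1 (0.18 ± 0.047), the regulator of plasma-cell differentiation, and IRF4 fell (-0.66 ± 0.058). Beside these counts, 27.7% of all tested genes were called higher in OCI-Ly1 (median -0.0033). In TMD8 29.9% were called higher and 30.7% lower (median 0.04). CDKN1A was also the 1 gene called in OCI-Ly1 at 150 nM among 81 tested genes of the 6 lists described here, at 1.16 ± 0.069. At that dose 0.748% of all tested genes were called higher and 0.141% lower.

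Proliferation genes moved beside these changes. Of 22 E2F-driven and mitotic genes, 4 rose and 11 fell in OCI-Ly1 at 500 nM (median -0.10). In TMD8 3 rose and 16 fell (median -0.58). Among all tested genes 27.7% were called higher and 25.9% lower in OCI-Ly1 (median -0.0033), and 29.9% and 30.7% in TMD8 (median 0.04). At 150 nM in TMD8 17 fell, beside 25% of all tested genes called lower. MKI67, the marker of cycling cells, fell by 0.49 in OCI-Ly1 and by 1.04 in TMD8, and mitotic PLK1 fell by 1.46 and 2.93 on the log2 scale. CCNB1, the mitotic cyclin, fell by 1.27 in OCI-Ly1, and CDC20, an activator of the anaphase-promoting complex, fell by 2.59 in TMD8. Replication genes did not all follow: PCNA was 0.08 (not called) and 0.25, CCNE2 rose by 0.52 and 1.0, and E2F1 was 0.29 and 0.04 (the latter not called). The part of this shift in the changes of EZH2 and the other Polycomb genes was not tested. In bulk RNA a change in the make-up of the cells and a change in RNA per cell cannot be told apart.

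Genes with the pattern most like EZH2, EZH1, CBX2 and CBX7 were taken as those with the smallest largest difference in log2 change over the 4 comparisons of a dose with DMSO, among 9554 genes with a mean of at least 5 CPM in every group. For EZH2 they were CASP2, KLHL9 and SECISBP2, within 0.03 to 0.04 of it in all 4 comparisons. For EZH1 they were RAB40C, SDHAP2 and C15orf37 (0.05 to 0.07), for CBX2 MOB2, TXNDC11 and PACS2 (0.05 to 0.06), and for CBX7 ZNF485, NAPRT1 and TTN (0.11 to 0.18). The comparisons within a line share DMSO libraries, and the likeness is a description.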

How the data were processed

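Per the labels' protocols, total RNA was depleted of ribosomal RNA and sequenced as paired ends. The submitters' processing notes name kallisto 0.46.0, R 4.3.1, DESeq2 1.40.2 and hg19, with no role for each; the step from transcripts to genes is not given in the sources used here. For each line the authors deposited a table of estimated counts per gene symbol, not scaled for depth, and a table of TPM, each library summing to 1000000. Estimated counts were rounded to whole numbers and tested with the quasi-likelihood test of edgeR 4.0.16 (R 4.3.3), with TMM normalisation and edgeR's low-count filter. Each line's 9 libraries entered 1 model with group as the factor. Comparisons between lines used 1 fit of all 18 libraries. P-values were adjusted by Benjamini-Hochberg over all genes tested, and genes were called at 0.05. Standard errors are the log2 change divided by the square root of F.

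The 10 genes were always named. Of each other list, up to 2 genes with the largest rise and 2 with the largest fall at 500 nM per line were named, if called, with at least 1 CPM in the higher group and no overlap, plus MKI67, PCNA, E2F1, KDM6A, KDM6B, BAP1 and CDKN1A. Some genes that this rule names are not reported here. The genes and lists were chosen with earlier results of these data known. Alternatives were DESeq2 1.42.0, limma 3.58.1 on log2(TPM + 1) or log2(TPM + 0.1), with and without centring, library-size scaling, no filter, a replicate block, only the groups compared, summed loci and leaving out each library. The script was tested on simulated counts. Library pairs within a group differed by a chi-square of 1.62 to 10.9 per degree of freedom, so none was a copy of another, and all 18 were kept. Libraries had no molecular identifiers, so depth limits low genes by counting error at the least.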

Additional observations from a re-analysis of the deposited data

Results flagged for a closer look

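The change against DMSO differed between the lines, by the test of the difference itself in 1 edgeR fit of 18 libraries, for 5 of the 10 genes at 150 nM and 7 at 500 nM, beside 23.3% and 46.4% of all tested genes. Values are log2 changes in OCI-Ly1 minus those in TMD8. At 150 nM they were -0.43 for EZH1, 0.41 for SUZ12, -0.38 for JARID2, -0.44 for RING1 and -1.06 for CBX7. At 500 nM they were -0.47 for EZH1, -0.30 for EED, 0.40 for SUZ12, -0.36 for JARID2, 1.08 for BMI1, 0.61 for RNF2 and -1.16 for CBX7. Line and culture medium cannot be told apart. The line differences were not tested on TPM, where the mean changes of JARID2 and EED at 500 nM were ordered the other way. The BMI1 value was 0.78 with its counts summed with the read-through locus and 0.90 without OCI-Ly1 DMSO library 1.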

How the results depend on the processing

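Of the values of single genes under an alternative, 1295 kept their side of the threshold, 47 fell short of it and 36 newly passed it. Of 837 values of called changes, 2 more had the other sign and did not pass, both EZH2 in OCI-Ly1 at 500 nM, at 0.011 on log2(TPM + 1) and on log2(TPM + 0.1); of 543 values of changes that were not called, 48 had the other sign, and 0 of these passed the threshold. TPM shifted all genes: the median log2 change at 500 nM was 0.10 in OCI-Ly1 and -0.22 in TMD8 on log2(TPM + 1), with 71.9% and 18.8% of called genes higher, against 51.6% and 49.3% in the edgeR fit; centring on the library median gave -0.12 and 0.03, with 32.3% and 48.3% higher. Library-size scaling moved the TMD8 median to 0.13, with 59.4% higher, and the OCI-Ly1 median to 0.08, with 64.0% higher. For TMD8 at 150 nM the share higher was 43.5% by edgeR, 60.5% with library-size scaling and 21.3% on log2(TPM + 1), and for TMD8 500 against 150 nM it was 47.9% and 10.4% on log2(TPM + 1). For OCI-Ly1 500 against 150 nM it was 54.3%, 67.9% with library-size scaling, 72.7% on log2(TPM + 1) and 31.8% centred. For the line difference at 150 nM it was 64.2% and 47.0% with library-size scaling.

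Counts of the 10 genes moved as follows. In OCI-Ly1, library-size scaling and both TPM scales left 1 gene called lower for 500 nM against DMSO and 1 for 500 against 150 nM. In TMD8 at 150 nM, log2(TPM + 1) called 1 higher and log2(TPM + 0.1) 2; library-size scaling and fitting only the groups compared called 2 lower each. In TMD8 at 500 nM both TPM scales called 3 higher and 5 lower. For TMD8 500 against 150 nM both called 0 higher (edgeR: 3), and 2 were lower with no filter, on log2(TPM + 1), on its centred form and with only the groups compared, and 3 on log2(TPM + 0.1). DESeq2 called 2 higher for the line difference at 150 nM. The cause of these moves was not tested.

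Leaving out each library gave 1 to 2 lower for OCI-Ly1 500 nM against DMSO, 1 to 3 for 500 against 150 nM, 2 to 4 for TMD8 150 nM against DMSO, 0 to 2 for TMD8 500 against 150 nM, and 1 to 2 higher and 4 to 5 lower for the line difference at 150 nM; the other counts did not move. The added line differences at 150 nM were EED, without OCI-Ly1 DMSO library 2, OCI-Ly1 150 nM library 3 or TMD8 150 nM library 2, and RNF2 and CBX2, without OCI-Ly1 150 nM library 1.

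Whether the replicate numbers pair the samples was not settled. Same-numbered deviations correlated at -0.07 to 0.26 in OCI-Ly1 and -0.07 to 0.18 in TMD8, over 0.1 in 2 of 9 pairs of each. Other-numbered ones ran from -0.29 to 0.07 and from -0.22 to 0.16. The same-numbered pairs over 0.1 all joined DMSO with 150 nM. They were libraries 1 and 3 in OCI-Ly1 (0.26 each) and in TMD8 (0.18 and 0.14), while libraries 2 gave 0.04 and -0.07. With a replicate block, 6 genes were called higher and 2 lower in OCI-Ly1 at 500 nM and 5 and 3 in TMD8; RNF2 in OCI-Ly1 (0.17, adjusted p = 0.0365) was the one added, and EZH2 for OCI-Ly1 500 against 150 nM (-0.12, adjusted p = 0.0490) was added too. CBX7 in TMD8 rested on 90 to 231 counts a library, and depth limits the precision of such genes.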
